A study of Mus musculus with 2 samples.

Results

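The messages described here encode the respiratory chain of mitochondria and were compared by the genome that carries them. Members were found by the gene name in the scanner files: names starting with Nduf, Uqcr or Atp5, the succinate dehydrogenase genes Sdha to Sdhd, Cyc1, Cycs, and the subunits of the Cox4 to Cox8 families. Every probe placed on the mitochondrial chromosome was added. This gave 102 genes of the 31705 named on the arrays, 89 from the nuclear genome and 13 from the mitochondrial genome. A gene is called measured where, in KO or in WT RNA, its probe was marked well above background by both arrays; 85 nuclear genes and all 13 mitochondrial genes were. The name prefixes also took in 6 genes that are assembly factors or similar proteins and not subunits of the complexes.

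The respiratory chain passes electrons from NADH and succinate through complexes I to IV to oxygen, pumps protons across the inner mitochondrial membrane, and drives ATP synthesis by complex V. Most subunits are made in the cytosol from nuclear genes and imported. A small set of hydrophobic core subunits is encoded in mitochondrial DNA and made inside the organelle, so complexes I, III, IV and V are built from messages of both genomes, while complex II is wholly nuclear. Mitochondrial DNA is transcribed into long precursors from each strand, which are cut into separate messages at the tRNAs that lie between most genes. Activated T cells increase both glycolysis and respiration, and regulatory T cells are known for a strong dependence on respiration.

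The RNA came from Lamtor1-deficient (KO) and wild-type (WT) CD4+ T cells of C57BL/6J mice. Lamtor1 is a subunit of Ragulator, the lysosomal anchor of the kinase complex mTORC1. Naive CD4+CD62L+ cells of the spleen were stimulated through CD3 and CD28 for 5 days with rhTGFβ at 1 ng/ml and, as growth factor, IL-2 at 50 ng/ml, a treatment that both genotypes shared. The labels do not settle whether the RNA was taken before or after this culture. How Lamtor1 was deleted, the age of the mice and whether mice were pooled are not given in the sources used here. There was 1 RNA extract per genotype, hybridised on 2 dual-colour arrays with the dyes exchanged. The 2 arrays are repeat measurements of the same pair of extracts, so no p-value is given, and the ± beside a log2 ratio of KO over WT is the technical SD of the 2 arrays. In bulk RNA, fewer cells of a type and less message per cell cannot be told apart.

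The probes of the mitochondrial genes carried the main contrast and are shown for the genes whose messages share a precursor, share a message or differ in strand. All 13 are 60 bases long. Their positions are in build mm9, and all but that of ND6 are written on the plus strand. The capitals at the end of the ND4L probe mark the 7 bases that, by the RefSeq annotation of GRCm38.p6, ND4L shares with the start of ND4. The probe named here ATP6 carries only a transcript identifier in the files (ENSMUST00000105091) and lies between the ATP8 and COX3 probes, where RefSeq's gene order places ATP6.
ND4L, chrM:10114-10173: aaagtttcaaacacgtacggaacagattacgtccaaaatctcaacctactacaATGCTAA
ND4, chrM:11370-11429: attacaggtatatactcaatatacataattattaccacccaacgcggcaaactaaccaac
ATP8, chrM:7870-7929: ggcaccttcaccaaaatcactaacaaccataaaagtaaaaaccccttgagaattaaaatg
ATP6, chrM:7965-8024: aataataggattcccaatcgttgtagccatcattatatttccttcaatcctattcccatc
CYTB, chrM:15099-15158: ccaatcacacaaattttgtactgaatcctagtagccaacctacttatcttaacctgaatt
COX1, chrM:6650-6709: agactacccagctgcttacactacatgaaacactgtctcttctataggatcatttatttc
ND6, chrM:13552-13611, minus strand: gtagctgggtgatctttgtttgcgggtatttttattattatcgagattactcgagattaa

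The targeted gene was lower in the KO extract, with a log2 ratio for Lamtor1 of −1.97 where KO carried Cy5 and −1.93 where it carried Cy3 (3.86-fold lower). Of the 6 CD4 T cell markers, all were measured and 3 were at least 2-fold lower on both arrays (Cd4, Cd5 and Trat1). Only Cd4 among them sets CD4 T cells apart from CD8 T cells, so the list does not compare these cells. Over all measured genes, 2.46% were at least 2-fold higher on both arrays and 6.88% lower. Cd3d and Cd3g had mean log2 ratios of −0.79 and −0.49, and Cd3e one of 0.09. Of 8 CD8 T and NK cell markers, 7 were measured and 4 were at least 2-fold higher (Klrd1, Klrc1, Klrb1c and Tyrobp), while Cd8b1 stood at −0.54 and −0.56. Klrb1c and Tyrobp were not well above background in WT. The intensities of each list were summed before the log2 was taken, so the brightest probes weigh most. This value was 14.65 to 14.69 in KO and 15.28 to 15.33 in WT for the CD4 T cell list. For the CD8 T and NK list it was 11.2 to 11.28 in KO and 9.97 to 10.02 in WT. Of 6 myeloid markers 2 were at least 2-fold higher (Fcer1g and Lyz1) and Cst3 stood at −0.57 and −0.41. Lyz1 and Lyz2 were not well above background in WT. The log2 of the summed myeloid intensities was 13.77 to 13.9 in KO and 13.06 to 13.18 in WT. Of the B cell list only Cd79b was measured, and its level was 7.58 to 7.71 in KO and 6.92 to 7.13 in WT. Of the erythroid list only Hbb-b1 was measured (6.31 to 6.59 in KO, not well above background, and 7.76 to 7.77 in WT). Ncr1, Cd79a, Ms4a1, Hba-a1 and Alas2 were not well above background in either RNA. The part of these cell type markers in the values below was not tested.

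Messages from the mitochondrial genome were higher in the KO extract, while those from the nuclear genome lay near the middle of all genes. The median log2 ratio was 0.97 over the 13 mitochondrial genes and −0.11 over the 85 measured nuclear genes, beside −0.024 over all 14879 measured genes. Here and in every share of all measured genes, a name without a match in RefSeq counts as a gene. Some of these names are bare probe identifiers, and their part in the shares is not given. With KO in Cy5 these medians were 0.81 and −0.083, and with KO in Cy3 they were 1.11 and −0.11. On both arrays, 12 of the 13 mitochondrial genes lay above 0 and ND6 lay below 0. Of the measured nuclear genes 31 lay above 0 on both arrays, 47 below 0 on both, and 7 on different sides. Over all measured genes 38.6% lay above 0 on both arrays and 44.3% below. These are the shares to set beside each later count of genes above or below 0 on both arrays.

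**Figure D1:**
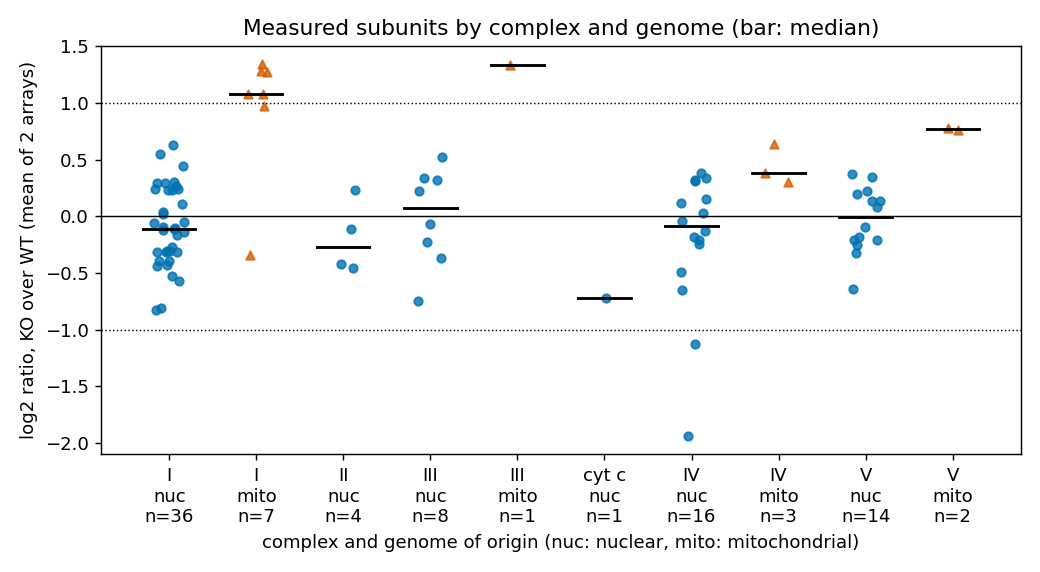
Log2 ratio of KO over WT (mean of the 2 arrays) for each measured subunit, by complex and genome of origin; circles are nuclear, triangles mitochondrial, bars are medians and dotted lines mark 2-fold. In complexes I, III, IV and V the median of the mitochondrial subunits lies above that of the nuclear subunits, and ND6 is the only mitochondrial gene below 0.

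Of the 98 measured members, 4 were higher and 2 were lower by 2-fold or more on each of the arrays, which is the rule of size used here. Over all measured genes 2.46% passed that rule as higher and 6.88% as lower. Under median centring 0 members were higher and 1 lower at 2-fold on both arrays. This was so although the means of Ndufc2 and Ndufv3, among others, then lay at −1.44. The 4 higher members were all mitochondrial (ND1, ND4, ND4L and CYTB) and both lower members were nuclear subunits of complex IV (Cox6b2 and Cox6a2). At 1.5-fold on both arrays 10 members were higher, 9 of them mitochondrial and Ndufb2 the nuclear one, and 8 were lower, all nuclear; under median centring these counts were 0 and 4. The share of all measured genes past that lower bar was 6.78% for higher and 13.5% for lower. The shares at both bars are for the reported processing, and none is given for median centring. Of the mitochondrial genes 10 had a mean ratio above that of the highest nuclear member, Ndufb2. No nuclear member reached the lowest value among ND1 to ND5, ND4L and CYTB.

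The mitochondrial subunits of complex I form its proton-pumping membrane arm. ND4, one of the antiporter-like pump subunits, had log2 ratios of 1.36 where KO carried Cy5 and 1.32 where it carried Cy3 (2.53-fold higher), and pairs of values keep that order throughout. Its normalised log2 intensity was 13.93 and 14.04 in the KO RNA on the 2 arrays and 12.57 and 12.72 in the WT RNA. ND4L, which is read from the same message as ND4, stood at 1.24 and 1.33, and its mean differed from that of ND4 by 0.058, beside technical SDs of 0.064 for ND4L and 0.025 for ND4.

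ND1, at the junction of the arms where ubiquinone is bound, stood at 1.23 and 1.32 (2.42-fold higher), with intensities of 11.33 and 11.59 in KO against 10.10 and 10.27 in WT. ND2, another pump subunit, was the least even between the arrays, at 0.81 and 1.35 (1.08 ± 0.38). ND3, which lies by the quinone site, stood at 0.99 and 1.16 and missed the 2-fold rule by the first array. ND5, the outermost pump subunit, stood at 0.84 and 1.11. These 6 subunits of complex I were thus all higher on both arrays, by at least 1.5-fold.

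ND6, the remaining mitochondrial subunit of complex I, went the other way. Its log2 ratio was −0.37 and −0.32, with intensities of 8.29 and 8.64 in KO against 8.66 and 8.96 in WT. ND6 is the only protein gene read from the opposite strand of mitochondrial DNA, and its probe was the only one of the 13 on the minus strand. ND5, whose probe lies next to that of ND6 on the genome but on the other strand, stood 1.32 above it on the log2 scale (1.21 and 1.43 on the single arrays). The ND6 probe was the dimmest of the 13 and was well above background in both RNAs on both arrays.

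**Figure D2:**
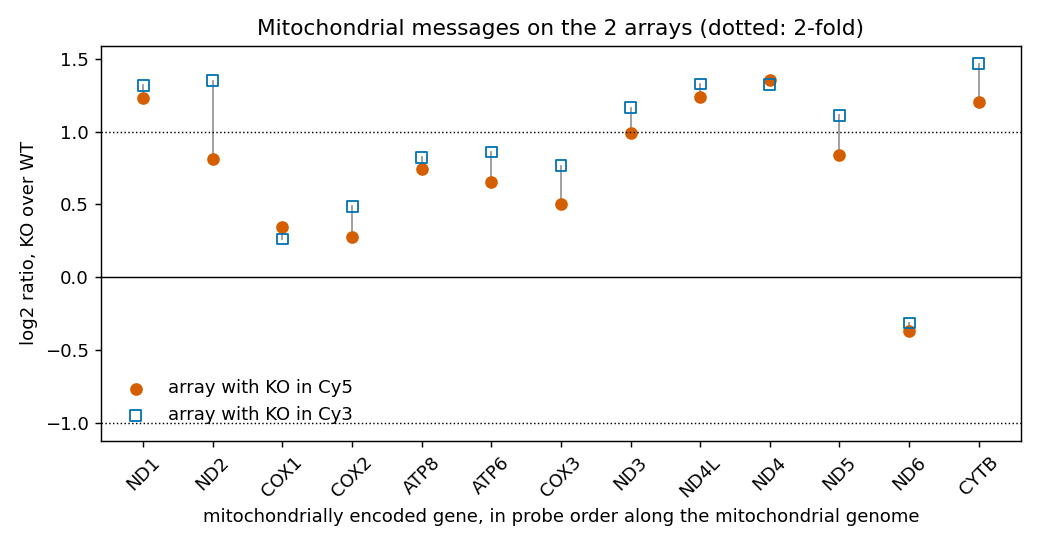
Log2 ratio of KO over WT for the 13 mitochondrial genes, in the order of their probes along the mitochondrial genome, circles for the array with KO in Cy5 and squares for that with KO in Cy3; dotted lines mark 2-fold. ND1, ND4, ND4L and CYTB lie above 2-fold on both arrays, COX1 and COX2 lie lowest among the plus-strand genes, and ND6 lies below 0.

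CYTB, the haem-bearing core of complex III and its only mitochondrial subunit, stood at 1.20 and 1.47 (2.52-fold higher). Its intensities were 14.67 and 15.03 in KO against 13.47 and 13.56 in WT. The mitochondrial subunits of complex V stood lower, with ATP8 at 0.74 and 0.82 and ATP6, which forms part of the proton path, at 0.66 and 0.86. These genes overlap by 43 bases in the RefSeq annotation and share a message, and their means differed by 0.024, within the technical SD of either (0.058 and 0.14).

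The catalytic core of complex IV showed the smallest ratios among the plus-strand genes. COX1, which holds the oxygen-reducing site, stood at 0.34 and 0.26, with intensities of 16.35 and 16.35 in KO against 16.01 and 16.09 in WT. COX2, which takes electrons from cytochrome c, stood at 0.27 and 0.49, and COX3 at 0.50 and 0.77. None of them passed the 1.5-fold rule. ND4 stood 1.04 above COX1 on the log2 scale (1.01 and 1.06 on the single arrays, 1.09 with median centring in place of loess), although both are read from the plus strand.

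Brightness moved with this order in part. COX1 and COX2 were the brightest of the 13, with mean log2 intensities of 16.2, and only 77 of 39423 probes were as bright as COX1 or brighter. No spot was marked as saturated. CYTB, at 14.18, was brighter than ATP6 at 13.77 and ATP8 at 12.77 and yet had the higher ratio, while ND1, at 10.82, had nearly the ratio of CYTB. The part of brightness in the low ratios of COX1 and COX2 was not tested.

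**Figure D3:**
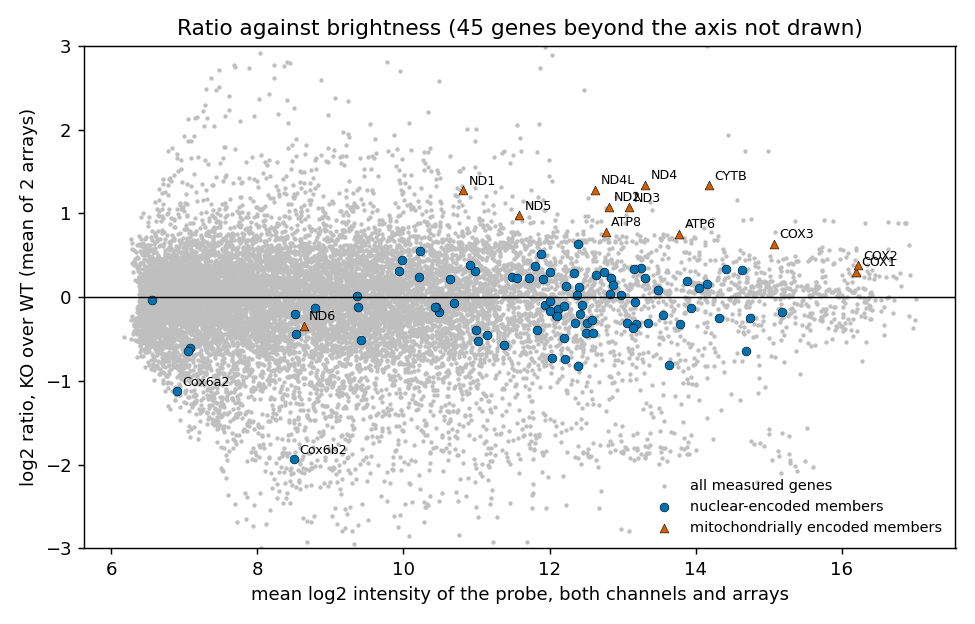
Log2 ratio of KO over WT (mean of the 2 arrays) against the mean log2 intensity of the probe for all measured genes (grey), nuclear members (circles) and mitochondrial members (triangles); 45 genes beyond a log2 ratio of 3 are not drawn. The mitochondrial genes spread over intensities from 8.63 to 16.2, with COX1 and COX2 at the bright end.

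Median centring in place of loess moved the median of all measured genes by −0.35, to −0.37. On that scale the mitochondrial median was 0.38 and the nuclear median −0.67, the latter −0.30 relative to all genes. The difference between the genomes stayed at 1.05, beside 1.09 with loess. COX1, COX2 and COX3 then lay at −0.38, −0.31 and −0.030, so the direction of these 3 genes depends on the scaling; relative to the median of all genes they stood at −0.0036, 0.068 and 0.34. ND6 lay at −0.75, or −0.38 relative to all genes, and the other 9 mitochondrial genes stayed above 0 in the mean of the 2 arrays. The raw signals, before any normalization, differed in direction between the arrays. For ND4 they were 18814 in KO and 5432.9 in WT with KO in Cy5, but 8370.9 and 12462 with KO in Cy3. For CYTB they were 32296.8 and 10100.3, and then 15895.8 and 22659.4. No ratio per array is given for median centring.

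**Figure D4:**
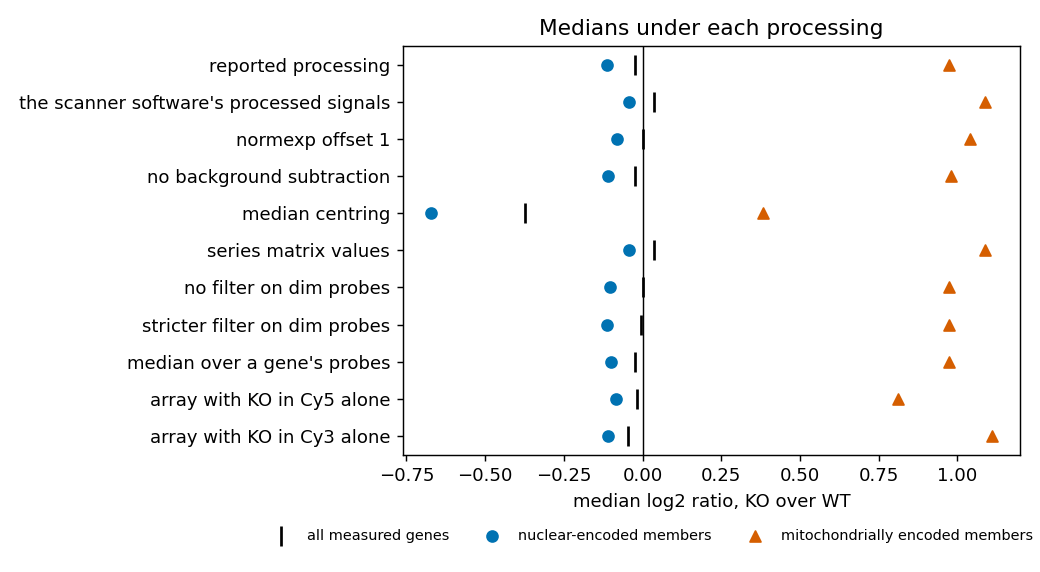
Median log2 ratio of KO over WT under the reported processing and each alternative, for all measured genes (ticks), nuclear members (circles) and mitochondrial members (triangles). The distance between the member medians lies between 0.89 and 1.22 in every row, while median centring moves all medians to lower values.

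The nuclear subunits of complex I fall into a catalytic core and accessory subunits, and no test compares these groups. Of the 7 core subunits, which carry the flavin and the iron-sulfur clusters or form the quinone site, 6 lay above 0 on both arrays (median 0.29). Ndufs8, which holds iron-sulfur clusters, stood at 0.32 and 0.56, and Ndufs7 at 0.40 and 0.18. Ndufs1 and Ndufs3 had means of 0.23 and 0.29. Ndufv1, counted among the 6, stood at 0.021, and Ndufv2 at −0.32 and −0.30. None of the 7 passed either rule of size. Under median centring their median was −0.32 and 1 of the 7 lay above 0.

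The 29 accessory subunits of complex I had a median of −0.14, with 8 above 0 and 21 below 0 on both arrays. Ndufc2, a membrane-arm subunit, was lowest at −0.99 and −0.66 (1.77-fold lower), with intensities of 11.84 and 12.10 in KO against 12.83 and 12.77 in WT. Ndufv3, a small subunit beside the NADH-binding site, stood at −0.77 and −0.85, and its second probe at −0.92 was close to this. Ndufs4, needed for a stable NADH-oxidising module, stood at −0.66 and −0.48 and Ndufb6 at −0.38 and −0.67. Ndufb2 was the highest nuclear member of all, at 0.62 and 0.63 (1.55-fold higher); under median centring it stood at 0.020. Next to it among the accessory subunits, Ndufa1 stood at 0.30 ± 0.07 and Ndufb10 at 0.27 ± 0.07.

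Complex II, which also serves the citric acid cycle, had a median of −0.27 over its 4 genes. Sdha, the flavoprotein that oxidises succinate, stood at 0.27 and 0.19. Sdhb, the iron-sulfur subunit, stood at −0.27 and −0.58, and the membrane anchors Sdhc and Sdhd at −0.11 ± 0.06 and −0.46 ± 0.30. The second probe of Sdhb stood at −0.18. No gene of complex II passed the 1.5-fold rule.

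In complex III the nuclear subunits spread on both sides of 0, with a median of 0.077 over 8 genes. Uqcrfs1, the Rieske iron-sulfur protein of the catalytic core, stood at −0.63 and −0.86 (1.68-fold lower), with intensities of 11.88 and 11.78 in KO against 12.51 and 12.65 in WT. Cyc1, the other nuclear core subunit, stood at 0.27 and 0.37. The 3 proteins of the catalytic core of complex III thus had ratios of 1.33 (CYTB), 0.32 (Cyc1) and −0.75 (Uqcrfs1). Of the accessory subunits, Uqcr (now Uqcr11) stood at 0.56 and 0.47, Uqcrh at 0.61 and 0.06, Uqcrq at −0.39 and −0.35 and Uqcrc2 at −0.17 and −0.29.

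Cycs, the soluble carrier between complexes III and IV, stood at −0.77 and −0.67 (1.65-fold lower), with intensities of 11.63 and 11.70 in KO against 12.40 and 12.38 in WT. A dimmer measured probe of Cycs stood at −0.20, so the size of its difference depends on the probe. Over the 24 members with several measured probes, 23 had all probes on the same side of 0 and 2 had probes more than 0.3 apart. The second of these was Cox7a2l, a factor that joins complexes III and IV, at 0.32 for the probe used and up to 0.86 for another.

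Complex IV held both nuclear members past the 2-fold rule, and both are isoforms known from other tissues. Cox6b2, known from testis, stood at −2.04 and −1.83 (3.83-fold lower), with intensities of 7.46 and 7.60 in KO against 9.50 and 9.44 in WT. Its probe was well above background in both RNAs. Cox6a2, the heart and muscle isoform, stood at −1.09 and −1.16 and was not well above background in KO on either array, so it was at least 2.18-fold lower. It passed the filter through the WT RNA alone, where its log2 intensity was 7.38 and 7.54. Cox7a1, another muscle isoform, stood at −0.69 and −0.61 (1.57-fold lower).

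The widely expressed partners of these isoforms stood closer to 0. Cox6b1, the partner of Cox6b2, stood at 0.19 and 0.43, Cox6a1, the partner of Cox6a2, at −0.29 and −0.07, and Cox7a2, the partner of Cox7a1, at −0.19 and −0.23. Cox4i1 stood at 0.02 and 0.28. Its partner Cox4i2, known as the isoform favoured at low oxygen, was dim: it was well above background in WT on both arrays and in KO on 1, with a ratio of −0.038 ± 0.07. Ndufa4, a subunit of complex IV in spite of its name, was the highest nuclear member there at 0.36 and 0.40, with Cox7b at 0.36 and 0.32. Its relative Ndufa4l2, a gene known to be induced by hypoxia, was not well above background in either RNA, nor were Cox7b2, Cox8b and Cox8c; Cox8a, the widely expressed partner of Cox8b, stood at −0.28 and −0.22.

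Of the nuclear genes of complex V, 5 lay above 0 and 7 below 0 on both arrays of 14 measured, beside 38.6% and 44.3% of all measured genes. Of the 5 genes of the rotary head and central stalk, 4 lay below 0 on both arrays (median −0.21). Among them Atp5c1, the rotating gamma subunit, stood at −0.32 ± 0.22 and the catalytic beta subunit Atp5b at −0.25 ± 0.21. Atp5g2, 1 of the genes for the proton-carrying ring, was lowest at −0.62 and −0.67 (1.56-fold lower), and its second probe stood at −0.77. Atp5g3, which encodes the same mature ring protein, stood at 0.21 and −0.05. Atp5j, of the peripheral stalk, was highest at 0.50 and 0.25, followed by Atp5j2 at 0.42 and 0.28 and the alpha subunit Atp5a1 at 0.35 and 0.10.

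The 6 genes that the prefixes took in without being subunits had a median of −0.17 and none passed the 1.5-fold rule. Atp5s (now Dmac2l), which is involved in ATP synthase coupling, stood at −0.81 and −0.40, and the complex I assembly factors Ndufaf2, Ndufaf3, Ndufaf4 and Ndufaf1 at −0.51, −0.20, −0.13 and 0.018. Atp5sl (now Dmac2) stood at 0.30 and 0.13.

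Several of the lowest nuclear members lie on chromosome 7, as Lamtor1 does. The 9 measured nuclear members on that chromosome had a median of −0.44, and the 76 elsewhere −0.10. No median over all measured genes of chromosome 7 is given beside these. Among the 9 are the isoforms known from other tissues, Cox6b2 (−1.94), Cox6a2 (−1.13) and Cox7a1 (−0.65), and no median without them is given. Cox6a2 passed the filter through the WT RNA alone. Cox6b2 lies 104.36 Mb from the Lamtor1 probe, Cox7a1 78.09 Mb, Cox6a2 26.29 Mb and Ndufc2 4.5 Mb. Ndufab1 and Uqcrc2 on the same chromosome stood at −0.44 and −0.23. Cox6b1, Ndufa3 and Atp5sl, also there, stood above 0, at 0.31, 0.23 and 0.22. Measured genes within 3 Mb of the Lamtor1 probe, 63 in number with no member among them, had a median of −0.37, and those within 10 Mb, 138 with Ndufc2 as the only member, had −0.22. The part of that neighbourhood in the value of Ndufc2 was not tested.

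Genes that serve the mitochondrial genome were listed apart from the members. Of 24 measured genes of mitochondrial transcription and RNA processing, Tfb1m, a methyltransferase of the mitochondrial ribosomal RNA, was at least 2-fold lower at −1.32 and −1.42, and none was higher. Its relative Tfb2m, which opens promoters for the mitochondrial RNA polymerase, was the highest of the list at 0.60, and that polymerase, Polrmt, stood at 0.23. The list had a median of 0.098, with 14 genes above and 8 below 0 on both arrays. Mterf3 stood at 0.56, Lrpprc, which stabilises plus-strand mitochondrial messages together with Slirp, at 0.41 and Slirp at −0.60. For mitochondrial DNA maintenance the median was 0.18 over 11 genes; the DNA polymerase gene Polg stood at 0.61 and Tk2 at 0.57, and the protease gene Lonp1 (−0.82) was the only one past 1.5-fold. Tfam, which packages mitochondrial DNA, stood at −0.18.

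Of 85 measured genes of the mitochondrial ribosome 54 lay below 0 on both arrays and 11 above (median −0.19), beside 44.3% and 38.6% of all measured genes. None passed the 2-fold rule, beside 2.46% of all measured genes as higher and 6.88% as lower. These are the shares to set beside each list's counts at 2-fold. At 1.5-fold 6 were lower and 1 higher, beside 13.5% and 6.78% of all measured genes, which are the shares to set beside each list's counts at 1.5-fold. Mrpl33 was lowest at −0.96, followed by Mrpl14 at −0.79, and Mrpl41 was highest at 0.66. Of 12 translation factors 1 passed 1.5-fold, Mtif2, an initiation factor, at 0.67 (median 0.051). Mtfmt, which makes the formylated initiator, stood at 0.49, and Tsfm and Mtrf1 stood lowest at −0.30 and −0.28.

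Under median centring all 11 list medians lay below 0, from −0.84 to −0.11, as did the median of all genes. Relative to all genes, the DNA maintenance list then stood at 0.27, the transcription and RNA processing list at 0.054 and the mitochondrial ribosome at −0.34. The other lists around the chain held no gene past the 2-fold rule, beside 2.46% of all measured genes as higher and 6.88% as lower. Among 41 measured assembly factors outside the name rule, 4 were lower and 4 higher at 1.5-fold, beside 13.5% and 6.78% of all measured genes. Atpif1, which inhibits ATP hydrolysis by complex V, stood at −0.93 and −1.12 and the complex I factor Nubpl at −1.10 and −0.82, while Hccs, which attaches haem to cytochrome c, stood at 1.08 and 0.74 and the complex III factor Ttc19 at 0.89 and 0.85. Of 25 protein import genes 3 were lower at 1.5-fold, beside 13.5% of all measured genes: Timm17b (−0.72), Hspa9 (−0.70) and Dnajc19 (−0.67); Tomm6 and Tomm34 were highest at 0.55 and 0.52. In the citric acid cycle list, 11 of 19 lay below 0 and 6 above on both arrays, beside 44.3% and 38.6% of all measured genes. Its median was −0.18, and its genes ranged from Idh2 at −0.44 and Ogdh at −0.42 to Dlat at 0.40 and Suclg1 at 0.47.

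Of 9 measured regulators of mitochondrial biogenesis 6 lay below 0 and 1 above on both arrays, beside 44.3% and 38.6% of all measured genes. Their median was −0.13, and they ranged from Gabpb1 at −0.41 and Gabpa at −0.38 to Esrra at 0.058 and Nrf1 at 0.18. All 8 measured exchange and uncoupling genes had means below 0 (median −0.30), with the outer membrane pore gene Vdac1 at −0.68 and the ADP/ATP carrier gene Slc25a5 at −0.51, and with Vdac3 at −0.12 and the phosphate carrier gene Slc25a3 at −0.025. Ubiquinone synthesis had a median of −0.094 over 12 genes, from Coq2 (−0.46) and Pdss1 (−0.43) to Coq9 (0.063) and Coq10b (0.19). The other enzymes that reduce ubiquinone had −0.27 over 7, from Gpd2 (−0.42) and Etfb (−0.40) to Dhodh (0.024) and Sqor (0.49).

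**Figure D5:**
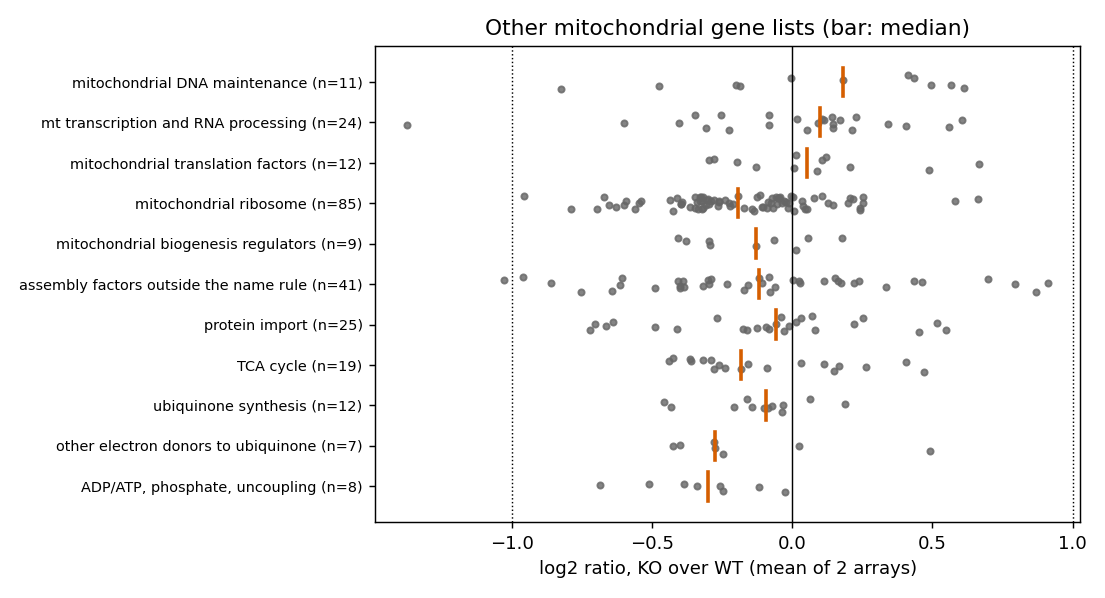
Log2 ratio of KO over WT (mean of the 2 arrays) for each measured gene of 11 further mitochondrial lists; bars are list medians and dotted lines mark 2-fold. All list medians lie between −0.30 and 0.18, and Tfb1m is the only gene that passed the 2-fold rule on both arrays.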

How the data were processed

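Per the labels, 2 Agilent mouse arrays with exchanged dyes each received 400 ng of cRNA per dye for 17 h at 65 °C. Per the file headers, Agilent Feature Extraction 10.7.3.1 read the images; the submitters' processing notes give 10.5.1.1. The deposited files hold mean spot intensity and local background intensity per channel without correction, and a processed intensity that the software background-subtracted and dye-normalized, as the file headers say. The deposited value table gives the log10 ratio, Cy5 over Cy3, and equals the scanner software's own.

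Background correction was by normexp with an offset of 50 and normalization by within-array loess (limma 3.58.1, R 4.3.3); control spots had weight 0, and 206 and 214 outlier spots were left out. Spots of a probe were averaged and log2 ratios turned to KO over WT. The brightest measured probe stood for a gene, named by RefSeq accession or symbol where matched. For 9249 of the 39423 probes no match was found, and each distinct name was kept as written and counted as a gene. Levels in each RNA are log2 intensities after Aquantile scaling. Of the spots, 43.7% to 51.7% were well above background; the number of arrays limits the precision. The offset shrinks ratios of dim probes. Loess sets the middle of the ratios near 0 at each brightness. The pipeline was tested on simulated data. Cross-hybridisation, including to nuclear copies of mitochondrial DNA, was not checked. Named were all mitochondrial members, members past a rule of size, the 3 highest and lowest per complex, isoform pairs, and per further list those past 2-fold or the 2 highest and lowest; further ones were chosen after values were seen. Members and lists were chosen with earlier results of these data known. Some genes that these rules would name are not reported here.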

Additional observations from a re-analysis of the deposited data

How the results depend on the processing

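The member counts, the medians of both genomes and the ratios of 383 genes, which include the measured members, list genes and markers, were recomputed under 10 alternatives, and the list medians under median centring; the chromosome 7 and motif medians were not. The difference between the mitochondrial and nuclear medians ranged from 0.89 to 1.22 over them. Under median centring, 0 members were higher and 1 lower at 2-fold and 0 higher and 4 lower at 1.5-fold, with medians of −0.67 (nuclear) and 0.38 (mitochondrial); the cause was not tested. The array with KO in Cy3 alone gave 7 members higher at 2-fold, and the stricter filter on dim probes gave 1 lower, since it leaves out Cox6a2. No share of all measured genes is given beside the member counts under the alternatives. The nuclear median was −0.042 from either the processed signals or the deposited log10 ratios, −0.082 with a normexp offset of 1, and −0.083 when the KO in Cy5 array stood alone. Of these 383 genes, 0 of those past the 1.5-fold rule changed the sign of their mean ratio under the alternatives. For several alternatives this outcome was fixed. The rule asks for the same direction on both arrays, so a single array could not turn a sign. The filters on dim probes left the ratios unmoved, and the deposited ratios repeat the processed signals. The alternatives were listed before these files were read, with earlier results known. No paired analysis was possible because each genotype gave a single RNA extract. Dim isoforms such as Cox6a2 and Cox4i2 are limited by their low signal over background.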

Other observations

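Some subunits carry other names in the scanner files and fall outside the name rule. By RefSeq accession or synonym 10 measured genes of this kind were found. Uqcr10, a subunit of complex III, stood at −0.11, the complex V genes Atp5md and Atp5mpl at 0.031 and −0.11, and Ndufb1 at −0.16. The complex I assembly factor gene Ndufaf6 stood at −0.81 and −0.87 on the 2 arrays, and Ndufaf5, Ndufaf7 and Ndufaf8 at 0.074, 0.068 and −0.039.

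The promoters of the nuclear members were searched on both strands for the palindromic core bound by the factor NRF1, whose letters are the capitals in the Atp5g2 window printed here, in the window from 250 bases before to 50 bases after each RefSeq gene start of GRCm38.p6. Of 73 members with a promoter there, 6 held it (8.2%), beside 1.07% of all 27025 genes: Atp5g2, Atp5k, Cox6a1, Ndufa11, Ndufaf4 and Uqcrc1. The median log2 ratio was −0.12 for these 6 and −0.13 for the 65 measured members without the motif. The ETS motif CCGGAAGT was held by 5 members (6.8%), beside 4.31% of all genes. The median was 0.29 for these 5 and −0.14 for the 66 measured members without it, a difference with no test. Atp5g2 was the only member past the 1.5-fold rule with the NRF1 letters, shown in capitals with 15 bases on each side, on the minus strand of GRCm38.p6.
Atp5g2, chr15:102671065-102671104: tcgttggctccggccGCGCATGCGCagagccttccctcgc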
